A study of Mus musculus with 12 samples.

Results

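The enzyme families that oxidise, reduce or conjugate drugs, aldehydes and other reactive small molecules were followed in mouse embryonic stem cells (ESCs) with and without a *Pramel7* transgene. The members were the genes of the deposited table whose symbol starts with *Gsta*, *Gstk*, *Gstm*, *Gsto*, *Gstp*, *Gstt*, *Mgst*, *Adh*, *Aldh*, *Aox*, *Fmo*, *Ugt* or *Cyp* and goes on with a digit. Genes named as pseudogenes were left out, and a member needed a value above 0 in at least 4 of the 6 libraries. Of the 50978 rows of the table, 185 carried such a name and 88 of these were members.

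RNA had been sequenced from 3 lines of E14 ESCs grown in medium with 15% serum and LIF, with 2 libraries per line from separate dishes. Parental ESCs carried no transgene. ESC + H/F-PRAMEL7_WT and ESC + H/F-PRAMEL7_ΔN, labelled Pramel7WT and Pramel7DNterm, carried an HA/FLAG-tagged *Pramel7* sequence that Cas9 had inserted at *Rosa26* under the CAG promoter. Each of these lines had been selected with puromycin and grown from a single cell, so that clone, selection and transgene cannot be told apart. PRAMEL7 is a protein of the early embryo that binds CUL2, the scaffold of a ubiquitin ligase, through its N-terminus. PRAMEL7_ΔN lacks that end, a deletion of 50 amino acids in the labels, and does not bind CUL2. The study's text differs from the labels in the length of the deletion and in the number of replicates, and the labels were followed. The lines are called the PRAMEL7_WT line and the PRAMEL7_ΔN line from here on.

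Cytochromes P450 (CYP), flavin monooxygenases (FMO), aldehyde oxidases (AOX), alcohol dehydrogenases (ADH) and aldehyde dehydrogenases (ALDH) oxidise their substrates. Glutathione transferases (GST) and UDP glycosyltransferases (UGT) then attach glutathione or a sugar, which makes many products easier to export. These families are best known from the liver, but dividing cells also use single members to clear formaldehyde and lipid aldehydes and to make proline, sterols and retinoic acid.

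The libraries held between 18253587 and 19854363 reads on genes. Levels are given as CPM, the reads of a gene scaled to the size of its library, where 1 read was worth 0.0502 to 0.0551 CPM. *Pramel7* had 0.258 and 0.217 CPM in parental ESCs, 51.2 and 46.2 in the PRAMEL7_WT line, and 398 and 431 in the PRAMEL7_ΔN line. The 8 ESC markers were all detected, with summed levels of 4180 to 4690 CPM per library. The 8 hepatocyte markers summed to 1.71 to 3.61 CPM, and *Alb* had a read in only 1 library. Fibroblast markers summed to 41.9 and 55.6 CPM in parental ESCs, 21.1 and 22.4 in the PRAMEL7_WT line and 43.7 and 38.8 in the PRAMEL7_ΔN line, mostly from *Thy1*. Primitive endoderm markers summed to 41.0 and 48.5, 58.2 and 62.0, and 81.6 and 75.0 CPM, mostly from *Col4a1*. Neural markers summed to 197 and 186, 264 and 267, and 185 and 161 CPM, mostly from *Tubb3*, while *Neurog2* had no read in any library, nor had the fibroblast marker *Dcn*. Mesendoderm markers summed to 6.35 and 5.32, 4.96 and 6.99, and 10.1 and 11.4 CPM. Trophectoderm markers summed to 8.10 and 9.60, 8.25 and 11.3, and 13.1 and 14.4 CPM. Both sums were highest in the PRAMEL7_ΔN line. They are not independent, since *Eomes*, a marker on both lists, had 4.9 and 4.28, 4.45 and 5.95, and 9.13 and 10.6 CPM. Among the other trophectoderm markers, *Hand1* was also highest in the PRAMEL7_ΔN line, whereas *Krt7* was not. The part of such cells in the changes below was not tested, and in whole cultures fewer cells of a type and less RNA per cell cannot be told apart.

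Most genes of these families were silent or nearly so. Of the 185 genes, 70 had no read in any library, and 70 had a read in all 6. All 4 aldehyde oxidase genes were members, as were 18 of 21 aldehyde dehydrogenases and 18 of 21 cytosolic glutathione transferases. *Gstk1*, of the kappa class, was counted with the last although its enzyme is not cytosolic. Of the P450 families CYP1 to CYP4, which hold most drug-oxidising P450s, 26 of 82 genes were members, and of the UDP glycosyltransferases 1 of 22. At the edge of the rule, *Adh1* was a member with reads in 4 libraries, whereas *Cyp2ab1*, with 6 and 6 reads in parental ESCs, 1 and 0 in the PRAMEL7_WT line and none in the PRAMEL7_ΔN line, was not. Of the 88 members, 56 had more than 1 CPM in at least 2 libraries and were tested. The other 32 had at most 30 reads in any library, with a median of 3.

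The highest levels belonged to enzymes of aldehyde detoxification and of basic metabolism. Between genes, levels are compared as CPM per kb of exons, averaged over the 3 lines. *Gsta4*, which conjugates lipid peroxidation aldehydes such as hydroxynonenal, came first with 354. *Adh5*, which clears formaldehyde bound to glutathione, followed with 101, *Aldh18a1*, an enzyme of proline synthesis, with 76.5, and *Aldh2*, the mitochondrial acetaldehyde dehydrogenase, with 56.5. *Gstp2* had 64.7, *Gstm1* 47.8 and *Gstp1* 43.1. The highest P450 was *Cyp51*, the lanosterol demethylase of cholesterol synthesis, with 25.0, and the only UDP glycosyltransferase, *Ugt8a*, which makes galactosylceramide, had 0.71. Summed over the members, the levels were 2783 and 2719 CPM in parental ESCs, 2929 and 2838 in the PRAMEL7_WT line, and 2648 and 2670 in the PRAMEL7_ΔN line.

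**Figure D1:**
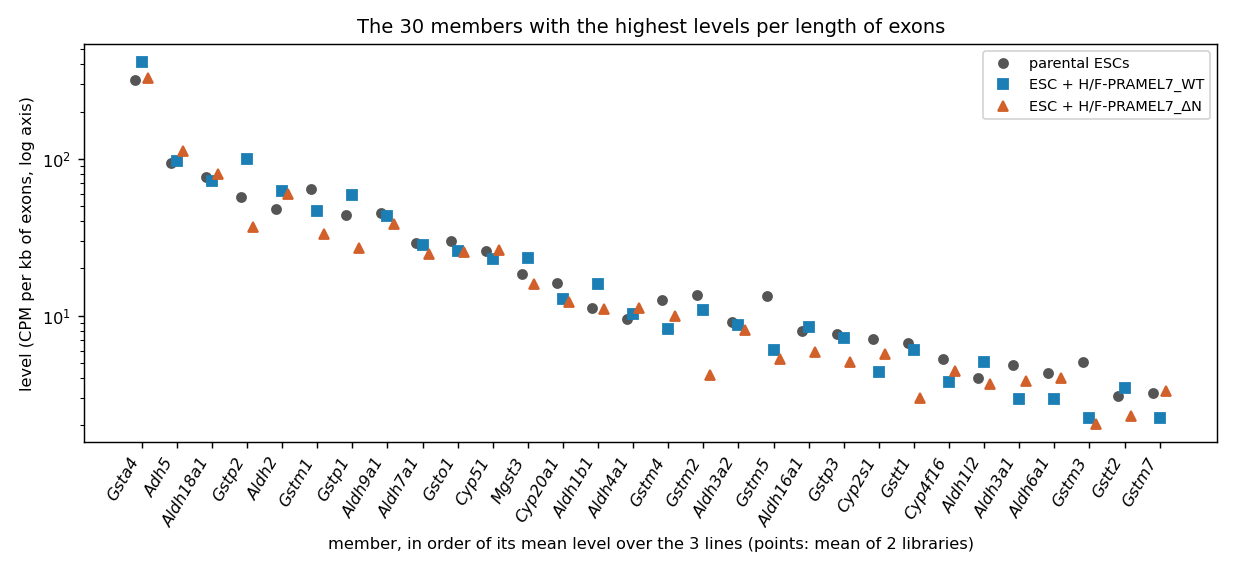
Levels of the 30 members with the highest values, as CPM per kb of exons on a log axis, with 1 point per line for the mean of its 2 libraries. *Gsta4* stands above all others with 319 to 413, and the points of *Gstm2*, *Gstp2*, *Gstm3* and *Gstm5* spread most between the lines on this axis.

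None of the 5 most abundant members apart from *Gstp2* was called in any contrast. The members at ranks 6 and 7, *Gstm1* and *Gstp1*, were both called lower in the PRAMEL7_ΔN line. *Gsta4* had 433 and 375 CPM in parental ESCs, 529 and 516 in the PRAMEL7_WT line and 411 and 422 in the PRAMEL7_ΔN line. *Aldh2* had 230 and 260, 311 and 324, and 312 and 302 CPM. Both libraries of the PRAMEL7_WT line lay above both parental ones for these genes. The log2 fold changes were 0.37 (SE 0.09, adjusted p = 0.0167 from limma) for *Gsta4* and 0.38 (SE 0.09, adjusted p = 0.0148) for *Aldh2*. Both PRAMEL7_ΔN libraries also lay above the parental ones for *Aldh2*, with 0.33 (SE 0.09, adjusted p = 0.0292 from limma). The derived lines differed by 0.05 for *Aldh2* (SE 0.09, adjusted p = 0.713 from limma). All of these changes were under the limit of 0.58 that a call needed. *Adh5* had 552 and 465, 544 and 507, and 585 and 626 CPM, and *Cyp51* 109 and 118, 107 and 96.8, and 111 and 120 CPM. *Aldh18a1* had between 287 and 331 CPM in every library. No contrast of *Adh5*, *Cyp51* or *Aldh18a1* had an adjusted p under 0.1.

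Changes between the lines were mostly decreases in lowly and moderately expressed members. A member was called when its adjusted p from limma was under 0.05 and its absolute log2 fold change above 0.58, fitted on log2(CPM + 1) over all 12914 genes above the filter. In the PRAMEL7_WT line relative to parental ESCs, 13 of the 56 tested members fell, or 23.2% against 8.41% of all genes tested, and 1 rose, or 1.79% against 4.07%. In the PRAMEL7_ΔN line, 17 fell, or 30.4% against 8.41%, and 1 rose, or 1.79% against 2.87%. Between the derived lines, 8 members were higher in the PRAMEL7_WT line, or 14.3% against 6.63%, and 2 were lower, or 3.57% against 4.72%. In all, 25 members were called in at least 1 contrast. The same share over all genes tested was not counted, so this number has no background beside it. The median log2 fold change of the tested members was -0.18 in the PRAMEL7_WT line, -0.31 in the PRAMEL7_ΔN line and 0.16 between them, against -0.08, -0.06 and -0.02 over all genes tested. Both derived lines were compared with the same parental libraries, so that their decreases are not independent of each other.

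These counts depended on scaling and on single libraries. With median-ratio scaling, 3 members rose and 9 fell in the PRAMEL7_WT line and 1 rose and 15 fell in the PRAMEL7_ΔN line, while the share of all calls that were increases moved from 32.6% to 47.9% and from 25.4% to 36.3%. With quantile normalization the members counted 3 and 8, and 1 and 13, and those shares were 51.4% and 45.6%. Without either library of the PRAMEL7_WT line, 5 members fell in that line, and without parental replicate 2 the increases there numbered 4. Without replicate 1 or replicate 2 of the PRAMEL7_ΔN line, 8 or 10 members fell in that line. Between the derived lines, 5 members were higher without replicate 2 of the PRAMEL7_WT line, and 0 were lower without either library of the PRAMEL7_ΔN line or without replicate 2 of the PRAMEL7_WT line, and 1 without its replicate 1. These fits with limma left 1 library in a line, whose spread was assumed to equal that of the other lines.

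**Figure D2:**
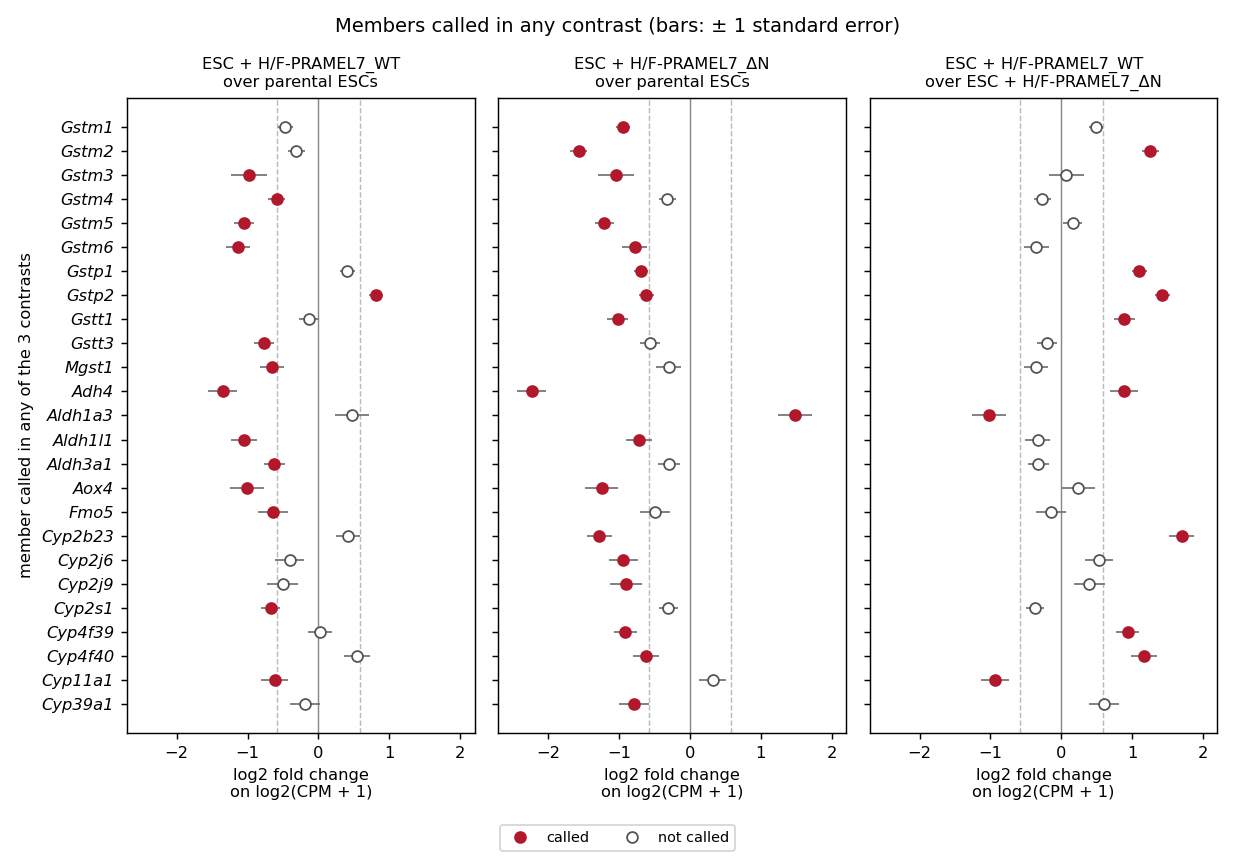
Log2 fold changes on log2(CPM + 1) of the 25 members called in any contrast, with bars of 1 standard error, in 3 panels for the 3 contrasts. Filled points are called, open points are not, and dashed lines mark the limit of 0.58. Most filled points of the first and second panels lie left of 0, and 8 of the 10 in the third lie right of it.

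Most mu-class glutathione transferases fell in at least 1 derived line. These enzymes conjugate epoxides and other electrophiles, and their 7 genes sit side by side on chromosome 3 between 107895821 and 108044894 (GRCm38). Their summed level was 166.9 and 175.5 CPM in parental ESCs, 114.5 and 116.7 in the PRAMEL7_WT line, and 94.2 and 84.0 in the PRAMEL7_ΔN line. All 7 were tested. In the PRAMEL7_WT line 4 fell and none rose, with a median log2 fold change of -0.59. In the PRAMEL7_ΔN line 5 fell and none rose, with a median of -0.95. The shares that fell were 57.1% and 71.4%, against 8.41% of all genes tested in each line. No increase passed an unadjusted p of 0.05 or was called with voom. All 7 were negative in the PRAMEL7_WT line and 6 of 7 in the PRAMEL7_ΔN line, with each of the 3 scalings tried.

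*Gstm5* had 16.5 and 17.5 CPM in parental ESCs, 8.00 and 7.38 in the PRAMEL7_WT line and 7.03 and 6.55 in the PRAMEL7_ΔN line. All 4 derived libraries lay below both parental ones. The log2 fold change was -1.05 in the PRAMEL7_WT line (SE 0.14, adjusted p = 0.00147 from limma) and -1.21 in the PRAMEL7_ΔN line (SE 0.14, adjusted p = 0.000558). The derived lines differed by 0.16 (SE 0.14, adjusted p = 0.438 from limma). *Gstm6* was also below parental ESCs in all 4 derived libraries, and lowest in the PRAMEL7_WT line, with 3.30 and 3.80, 1.22 and 0.936, and 1.71 and 1.58 CPM, and log2 fold changes of -1.13 and -0.78. *Gstm3* varied more between the libraries of a line, with 5.16 and 8.19, 2.13 and 3.69, and 3.06 and 2.27 CPM, and fell by 0.97 and 1.05 on the log2 scale.

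*Gstm2* and *Gstm1* were lowest in the PRAMEL7_ΔN line. *Gstm2* had 22.8 and 22.9 CPM in parental ESCs, 18.1 and 18.3 in the PRAMEL7_WT line and 7.28 and 6.81 in the PRAMEL7_ΔN line. The libraries of a line differed little, and the 3 lines did not overlap. Its log2 fold change in the PRAMEL7_ΔN line was -1.57 (SE 0.12, adjusted p = 7.01e-05 from limma), in the PRAMEL7_WT line -0.31 (SE 0.12, adjusted p = 0.0876), and between the derived lines 1.26 (SE 0.12, adjusted p = 0.000212). *Gstm1*, the most abundant of the class, had 92.2 and 96.8, 67.0 and 69.3, and 52.1 and 45 CPM. It fell in the PRAMEL7_ΔN line, with -0.95 (SE 0.10, adjusted p = 0.000388 from limma), and had -0.46 in the PRAMEL7_WT line, which is under the limit of a call. *Gstm4* was lowest in the PRAMEL7_WT line, with 21.9 and 21.2, 14.1 and 13.8, and 17.8 and 16.3 CPM, and fell there by 0.59. *Gstm7* was called in neither line, with 5.16 and 5.15, 3.90 and 3.25, and 5.12 and 5.44 CPM.

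The calls of *Gstm1*, *Gstm2* and *Gstm5* stood without any single library, but others of this class did not. The adjusted p of *Gstm3* from limma was 0.177 in the PRAMEL7_WT line without its replicate 1, and in the PRAMEL7_ΔN line 0.0683 and 0.134 without its replicate 1 or 2. That of *Gstm6* in the PRAMEL7_ΔN line was 0.078 and 0.091, and that of *Gstm4* in the PRAMEL7_WT line 0.0728 and 0.0804. *Gstm4* also passed under the fold limit without parental replicate 1 (log2 fold change -0.57) and was not called with median-ratio scaling or quantile normalization. Of the 100-base words in its transcripts, *Gstm3* shared 13.8% with other genes, and 13.9% of the exon bases of *Gstm5* lie opposite the gene 4933431E20Rik, from which reads of a kit that keeps no strand cannot be separated.

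Pi-class glutathione transferases split the derived lines. *Gstp1* and *Gstp2* encode near-identical enzymes of electrophile conjugation, and *Gstp3* is another gene beside them on chromosome 19, between 4035407 and 4059569. *Gstp2* had 60.7 and 65.7 CPM in parental ESCs, 117 and 106 in the PRAMEL7_WT line, and 43.5 and 38.5 in the PRAMEL7_ΔN line. It was the only member that rose in one derived line and fell in the other. The log2 fold change was 0.81 in the PRAMEL7_WT line (SE 0.10, adjusted p = 0.00144 from limma), -0.61 in the PRAMEL7_ΔN line (SE 0.10, adjusted p = 0.00384) and 1.42 between them (SE 0.10, adjusted p = 3.62e-05), where the ratio of means was 2.72-fold. *Gstp1* had 71.9 and 64.1, 95.9 and 85.4, and 42.0 and 41.3 CPM. It fell in the PRAMEL7_ΔN line, with -0.69 (SE 0.10, adjusted p = 0.00206 from limma), and was higher by 1.10 in the PRAMEL7_WT line than in that line (SE 0.10, adjusted p = 0.000162). Its 0.41 in the PRAMEL7_WT line over parental ESCs was under the limit. *Gstp3* had 6.31 and 7.61, 6.56 and 6.50, and 4.96 and 4.21 CPM and was called in no contrast. Its value over parental ESCs in the PRAMEL7_WT line was -0.08, and turned positive with median-ratio scaling and quantile normalization.

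*Gstp1* and *Gstp2* cannot be counted apart with confidence. Of the 100-base words of *Gstp2* transcripts, 41.6% also occur in *Gstp1*, and 25.1% of those of *Gstp1* occur in *Gstp2*. Summed over the class, the level was 138.9 and 137.4 CPM in parental ESCs, 219.4 and 198.1 in the PRAMEL7_WT line, and 90.5 and 84.0 in the PRAMEL7_ΔN line. The decrease of *Gstp2* in the PRAMEL7_ΔN line was near the limit. Its log2 fold change was -0.53 without replicate 2 of that line and -0.56 without parental replicate 2, and it was not called with median-ratio scaling or quantile normalization. No other call of *Gstp1* or *Gstp2* was lost without a single library or with another scaling.

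Promoters are given for *Gstp1* and *Gstp2*, which moved together, for *Gstm5*, which fell in both derived lines, and for *Gstm2*, which was called in the PRAMEL7_ΔN line and not in the PRAMEL7_WT line. Each window runs from 250 bases before to 50 after the start site in the RefSeq annotation of GRCm38.p6, on the strand of the gene. Capitals mark the core of the antioxidant response element, TGACNNNGC, which the oxidative stress factor NRF2 binds, and of the xenobiotic response element, GCGTG, which the aryl hydrocarbon receptor binds, searched on both strands. The windows are chr19:4037863-4038162 for *Gstp1*, chr19:4042172-4042471 for *Gstp2*, chr3:107895604-107895903 for *Gstm5* and chr3:107986371-107986670 for *Gstm2*.
Gstp1: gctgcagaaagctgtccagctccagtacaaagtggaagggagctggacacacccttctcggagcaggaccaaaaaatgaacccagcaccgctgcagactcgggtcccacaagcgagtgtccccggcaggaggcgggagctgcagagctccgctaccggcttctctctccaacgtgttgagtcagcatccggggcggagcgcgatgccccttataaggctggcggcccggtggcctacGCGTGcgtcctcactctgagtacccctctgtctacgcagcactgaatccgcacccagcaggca
Gstp2: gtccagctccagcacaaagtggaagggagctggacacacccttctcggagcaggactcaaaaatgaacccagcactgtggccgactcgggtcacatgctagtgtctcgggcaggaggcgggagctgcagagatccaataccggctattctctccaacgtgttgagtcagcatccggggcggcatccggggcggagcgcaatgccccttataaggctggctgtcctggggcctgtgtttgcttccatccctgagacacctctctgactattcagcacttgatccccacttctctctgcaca
Gstm5: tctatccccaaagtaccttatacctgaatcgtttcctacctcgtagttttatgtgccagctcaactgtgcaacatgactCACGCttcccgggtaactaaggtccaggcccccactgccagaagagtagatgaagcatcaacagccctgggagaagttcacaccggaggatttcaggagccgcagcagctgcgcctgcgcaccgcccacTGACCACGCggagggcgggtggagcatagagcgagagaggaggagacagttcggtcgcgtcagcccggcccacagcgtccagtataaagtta
Gstm2: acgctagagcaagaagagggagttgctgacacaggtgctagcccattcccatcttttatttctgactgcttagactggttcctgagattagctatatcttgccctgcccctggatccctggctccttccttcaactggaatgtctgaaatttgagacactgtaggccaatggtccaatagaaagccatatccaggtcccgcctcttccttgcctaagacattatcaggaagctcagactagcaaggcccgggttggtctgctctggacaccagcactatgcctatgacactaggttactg

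In a global alignment, 76.4% of the positions of the *Gstp1* and *Gstp2* windows were identical, gaps included, against 48.3% for *Gstp1* and *Gstp3*. *Gstp1* held GCGTG at -13 from the start site, whereas *Gstp2* and *Gstm2* held neither core as searched. The windows of *Gstp1* and *Gstp2* both hold TGAGTCAGC, which has a G where TGACNNNGC has its C. Such related forms of the core were not searched, so they are not marked or counted. *Gstm5* held TGACNNNGC at -42 and GCGTG at -171 and -38, the last inside the first. Of all 27025 RefSeq genes with a window, 14.0% held TGACNNNGC and 35.2% held GCGTG, and 18.1% held AGGTCA, the half-site of nuclear receptors. Windows were found for 71 members, of which 12.7%, 40.8% and 14.1% held these motifs, against 17.0%, 56.7% and 14.8% of the 9848 tested genes with one. Among the 22 members with a window that were called in any contrast, 4 held TGACNNNGC, 5 held GCGTG and 5 held AGGTCA. A match in these windows is no evidence of binding.

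Among theta-class enzymes, *Gstt1* fell in the PRAMEL7_ΔN line and *Gstt3* in the PRAMEL7_WT line. GSTT1 conjugates small halogenated molecules, and both genes sit on chromosome 10. *Gstt1* had 9.55 and 11.0 CPM in parental ESCs, 8.86 and 9.69 in the PRAMEL7_WT line and 4.47 and 4.65 in the PRAMEL7_ΔN line. Only the PRAMEL7_ΔN line stood apart, with -1.02 over parental ESCs (SE 0.15, adjusted p = 0.00182 from limma) and 0.89 for the PRAMEL7_WT line over it (SE 0.15, adjusted p = 0.00332). *Gstt3* had 11.8 and 11.0, 6.18 and 6.33, and 7.03 and 7.71 CPM. It fell in the PRAMEL7_WT line, with -0.77 (SE 0.14, adjusted p = 0.0056 from limma), and its -0.56 in the PRAMEL7_ΔN line was under the limit. Without replicate 1 or 2 of the PRAMEL7_WT line the adjusted p of *Gstt3* was 0.0594 and 0.054, and without replicate 2 that of *Gstt1* between the derived lines was 0.0521. The gene Gm20441 covers 13.6% of the exon bases of *Gstt3* on the same strand, and its reads cannot be separated there. *Gstt2*, with 10.6 and 15.0, 14.6 and 14.0, and 10.1 and 9.03 CPM, was called in no contrast. Neither were *Gsta3*, *Gsto1* and *Gstk1*.

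Of the microsomal glutathione transferases, which are membrane proteins of a separate fold, *Mgst1* had 1.65 and 1.74 CPM in parental ESCs, 0.759 and 0.661 in the PRAMEL7_WT line and 1.15 and 1.21 in the PRAMEL7_ΔN line. It fell in the PRAMEL7_WT line, with -0.66 (SE 0.17, adjusted p = 0.0224 from limma). This call of limma rested on 12 to 32 reads per library and was lost with quantile normalization and without replicate 1 (adjusted p = 0.102) or 2 (adjusted p = 0.134) of the PRAMEL7_WT line. *Mgst3*, the more abundant one, had 19.7 and 20.7, 24.1 and 27.1, and 18.2 and 16.8 CPM and was called in no contrast.

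**Figure D3:**
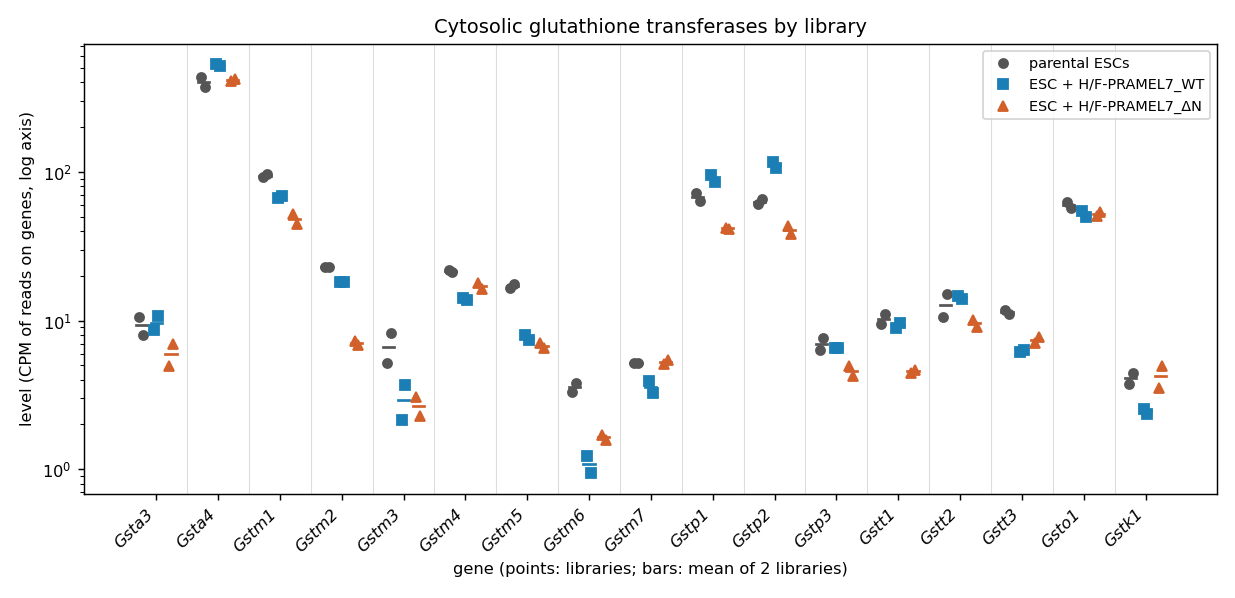
Levels of the 17 tested genes counted as cytosolic glutathione transferases, *Gstk1* included, in each of the 6 libraries. Values are CPM on a log axis, with points for libraries and short bars for the mean of 2. *Gstp1* and *Gstp2* are highest in the PRAMEL7_WT line and lowest in the PRAMEL7_ΔN line, whereas *Gstm5* and *Gstm6* are lower in both derived lines than in parental ESCs.

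*Adh4*, an alcohol dehydrogenase that also oxidises retinol, showed the largest decrease on the log2 scale among the tested members. It had 4.49 and 4.34 CPM in parental ESCs, 0.81 and 1.49 in the PRAMEL7_WT line, and 0.201 and 0.106 in the PRAMEL7_ΔN line, the last from 4 and 2 reads. The 3 lines did not overlap. Its log2 fold change was -1.35 in the PRAMEL7_WT line (SE 0.20, adjusted p = 0.00239 from limma) and -2.23 in the PRAMEL7_ΔN line (SE 0.20, adjusted p = 0.000154), on a scale that understates changes of low genes. The ratios of the means were 3.84-fold and 28.8-fold. Between the derived lines the difference was 0.88 (SE 0.20, adjusted p = 0.0145 from limma). That last call of limma was lost without replicate 2 of the PRAMEL7_WT line (adjusted p = 0.139) and without either library of the PRAMEL7_ΔN line (adjusted p = 0.062 and 0.117), while the decreases over parental ESCs kept their call under every alternative that was run.

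*Adh1*, which lies in the same gene cluster on chromosome 3, was too low to test. It had 9 and 12 reads in parental ESCs, 8 and 3 in the PRAMEL7_WT line and 0 and 0 in the PRAMEL7_ΔN line. Counted against a floor of 3 reads over the PRAMEL7_ΔN line, the 21 reads of parental ESCs gave a ratio of 7.15-fold. The counting error of those 21 reads is left out of this ratio, so it is no strict lower bound. *Adh7*, which oxidises retinol and ethanol, had 1.14 and 0.976, 1.57 and 2.53, and 1.00 and 1.21 CPM. It was called in no contrast.

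Aldehyde dehydrogenases were the only family with a called increase beside the pi-class glutathione transferases. Of the 16 tested, 2 fell in the PRAMEL7_WT line, or 12.5% against 8.41% of all genes tested, and none rose. There 3 increases had an unadjusted p under 0.05 and voom called none. In the PRAMEL7_ΔN line 1 fell and 1 rose, or 6.25% each, against 8.41% and 2.87% of all genes tested. *Aldh1a3*, which makes retinoic acid from retinal, had 0.619 and 1.74 CPM in parental ESCs, 2.08 and 1.76 in the PRAMEL7_WT line, and 4.87 and 4.91 in the PRAMEL7_ΔN line. The PRAMEL7_ΔN libraries lay above all others, and the parental libraries differed by more than those of either derived line. Its log2 fold change was 1.48 in the PRAMEL7_ΔN line (SE 0.24, adjusted p = 0.00308 from limma), 0.47 in the PRAMEL7_WT line (SE 0.24, adjusted p = 0.174) and -1.01 between the derived lines (SE 0.24, adjusted p = 0.017). The first stood under every alternative, while the last was lost without any 1 of the 4 libraries compared, with adjusted p values from 0.081 to 0.123. *Aldh1a2*, another retinal dehydrogenase, had 1.86 and 1.14, 1.57 and 1.93, and 0.953 and 1.37 CPM, and *Cyp26a1*, which degrades retinoic acid, had at most 2 reads in any library.

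*Aldh1l1*, which oxidises formyltetrahydrofolate, fell in both derived lines, from 13.3 and 19.9 CPM to 7.49 and 7.21 and to 9.69 and 9.40. Parental replicate 2 was the highest library. The gene Gm15756 lies opposite 11.0% of its exon bases, where reads cannot be separated. The log2 fold changes were -1.05 (SE 0.18, adjusted p = 0.00433 from limma) and -0.71 (SE 0.18, adjusted p = 0.0222). With limma, the second was lost without parental replicate 2 (adjusted p = 0.0662) and without replicate 1 or 2 of the PRAMEL7_ΔN line (adjusted p = 0.111 and 0.119). *Aldh3a1*, which oxidises aromatic and lipid aldehydes, had 9.24 and 9.55, 5.57 and 5.95, and 8.18 and 6.81 CPM. Its log2 fold change of -0.62 in the PRAMEL7_WT line (SE 0.15, adjusted p = 0.0163 from limma) was lost with median-ratio scaling, with quantile normalization and without replicate 1 or 2 of that line (adjusted p = 0.124 and 0.0911). Several others had an adjusted p under 0.05 with a change under the limit, among them *Aldh1b1*, with 24.2 and 27.1, 36.2 and 37.2, and 27.9 and 22.8 CPM.

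*Aox4* was the 1 aldehyde oxidase gene high enough to test, and the 1 member that passed the filter through a single line. Only its parental libraries were above 1 CPM, so that the filter itself favoured a decrease. It had 1.65 and 2.17 CPM in parental ESCs, 0.709 and 0.22 in the PRAMEL7_WT line, and 0.0502 and 0.422 in the PRAMEL7_ΔN line. All 4 derived libraries lay below both parental ones. The log2 fold changes were -1.0 (SE 0.24, adjusted p = 0.0152 from limma) and -1.25 (SE 0.24, adjusted p = 0.00643), and the calls were lost without replicate 2 of the PRAMEL7_WT line (adjusted p = 0.127) and without replicate 1 of the PRAMEL7_ΔN line (adjusted p = 0.0749). The other 3 genes of the family had few reads, with 3 and 1, 6 and 2, and 0 and 1 for *Aox3*.

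Flavin monooxygenases and the UDP glycosyltransferase gave 1 call, which few alternatives kept. *Fmo5*, an oxygenase of ketones, had 2.89 and 2.55, 1.77 and 1.05, and 1.35 and 1.95 CPM. Its decrease in the PRAMEL7_WT line (-0.64, SE 0.21, adjusted p = 0.0491 from limma) passed in 2 of 15 alternatives, and without replicate 2 of that line its adjusted p was 0.306. *Fmo4* had 14 and 6 reads in parental ESCs and at most 1 in each derived library, and *Fmo1* had at most 4 in any library. *Ugt8a* had 3.97 and 3.15, 2.18 and 2.48, and 4.01 and 3.54 CPM, with -0.45 in the PRAMEL7_WT line (SE 0.17, adjusted p = 0.0824 from limma).

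Of the 10 genes of CYP1 to CYP4 that were tested, which oxidise drugs and fatty acids, 5 fell in the PRAMEL7_ΔN line and 1 in the PRAMEL7_WT line, where 8.41% of all genes tested fell in each line. None rose with limma or voom, and 2 increases in the PRAMEL7_WT line had an unadjusted p under 0.05. The median log2 fold changes were -0.65 and -0.26. Between the derived lines, 3 of the 10 were higher in the PRAMEL7_WT line, against 6.63% of all genes tested.

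*Cyp2b23* differed most between the derived lines among the tested members. It had 2.32 and 1.90 CPM in parental ESCs, 3.09 and 3.19 in the PRAMEL7_WT line, and 0.351 and 0.211 in the PRAMEL7_ΔN line. The PRAMEL7_WT libraries were the highest and the PRAMEL7_ΔN libraries the lowest. The difference between the derived lines was 1.69 on the log2 scale (SE 0.18, adjusted p = 0.000298 from limma), an 11.2-fold ratio of means. Over parental ESCs, the PRAMEL7_ΔN line had -1.28 (SE 0.18, adjusted p = 0.00144) and the PRAMEL7_WT line 0.42 (SE 0.18, adjusted p = 0.109 from limma).

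*Cyp4f39* and *Cyp4f40*, of a family that hydroxylates the ends of fatty acids, were also lowest in the PRAMEL7_ΔN line. *Cyp4f39* had 4.19 and 5.13, 4.53 and 4.93, and 1.95 and 2.05 CPM, a decrease of -0.91 in the PRAMEL7_ΔN line (SE 0.17, adjusted p = 0.00522 from limma) and a difference of 0.93 between the derived lines (SE 0.17, adjusted p = 0.00455). *Cyp4f40* had 1.34 and 1.58, 2.85 and 2.35, and 0.733 and 0.495 CPM. Its difference between the derived lines was 1.16 (SE 0.18, adjusted p = 0.00261 from limma), and its -0.61 over parental ESCs (adjusted p = 0.0427) was lost with either other scaling and without any library but parental replicate 1, with adjusted p values from 0.0739 to 0.228. With limma, the calls of *Cyp4f39* were lost without replicate 1 of the PRAMEL7_ΔN line (adjusted p = 0.0522 over parental ESCs) and without replicate 2 of the PRAMEL7_WT line (adjusted p = 0.059 between the derived lines). The other 3 tested genes of this family, *Cyp4f13*, *Cyp4f16* and *Cyp4f17*, were called in no contrast.

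*Cyp2j6* and *Cyp2j9* fell in the PRAMEL7_ΔN line. *Cyp2j6* had 2.01 and 2.49, 1.77 and 1.16, and 0.552 and 0.845 CPM, with -0.94 (SE 0.20, adjusted p = 0.0112 from limma). *Cyp2j9* had 1.19 and 1.95, 1.06 and 0.551, and 0.301 and 0.422 CPM, with -0.90 (SE 0.22, adjusted p = 0.0203 from limma). The PRAMEL7_WT libraries lay between the others for both genes. Without replicate 1 of the PRAMEL7_ΔN line the adjusted p from limma was 0.101 for *Cyp2j6* and 0.135 for *Cyp2j9*, and *Cyp2j9* was also lost without replicate 2 (adjusted p = 0.0887), without parental replicate 2 (adjusted p = 0.0575) and with quantile normalization. *Cyp2s1*, the most abundant of these families per length of exons, had 31.2 and 39.2, 20.6 and 22.6, and 29.3 and 27.1 CPM. It fell in the PRAMEL7_WT line, with -0.67 (SE 0.13, adjusted p = 0.00736 from limma), a call lost without replicate 1 (adjusted p = 0.0824) or 2 (adjusted p = 0.0521) of that line and, at a log2 fold change of -0.51, without parental replicate 2. *Cyp1b1*, a target of the aryl hydrocarbon receptor, was too low to test and had 5 and 2 reads in parental ESCs, 20 and 17 in the PRAMEL7_WT line and 2 and 7 in the PRAMEL7_ΔN line.

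Among the P450s of sterols and hormones, 1 of the 5 tested fell in each derived line, or 20.0% against 8.41% of all genes tested. *Cyp11a1*, which starts steroid synthesis from cholesterol, had 3.25 and 2.39 CPM in parental ESCs, 1.77 and 1.21 in the PRAMEL7_WT line, and 3.61 and 3.85 in the PRAMEL7_ΔN line. It was lower in the PRAMEL7_WT line than in the PRAMEL7_ΔN line by -0.93 (SE 0.19, adjusted p = 0.00929 from limma) and than in parental ESCs by -0.62 (SE 0.19, adjusted p = 0.0426). The second passed in 3 of 15 alternatives, with an adjusted p of 0.259 from limma without replicate 2 of the PRAMEL7_WT line, and the first was lost without that library (adjusted p = 0.0974) and without either PRAMEL7_ΔN library (adjusted p = 0.0543 and 0.0858). *Cyp39a1*, which hydroxylates oxysterols on the way to bile acids, had 4.59 and 7.81, 5.21 and 5.12, and 3.26 and 2.90 CPM. Its -0.78 in the PRAMEL7_ΔN line (SE 0.21, adjusted p = 0.0301 from limma) was lost with quantile normalization and without any library but parental replicate 1, with adjusted p values from 0.0614 to 0.16.

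**Figure D4:**
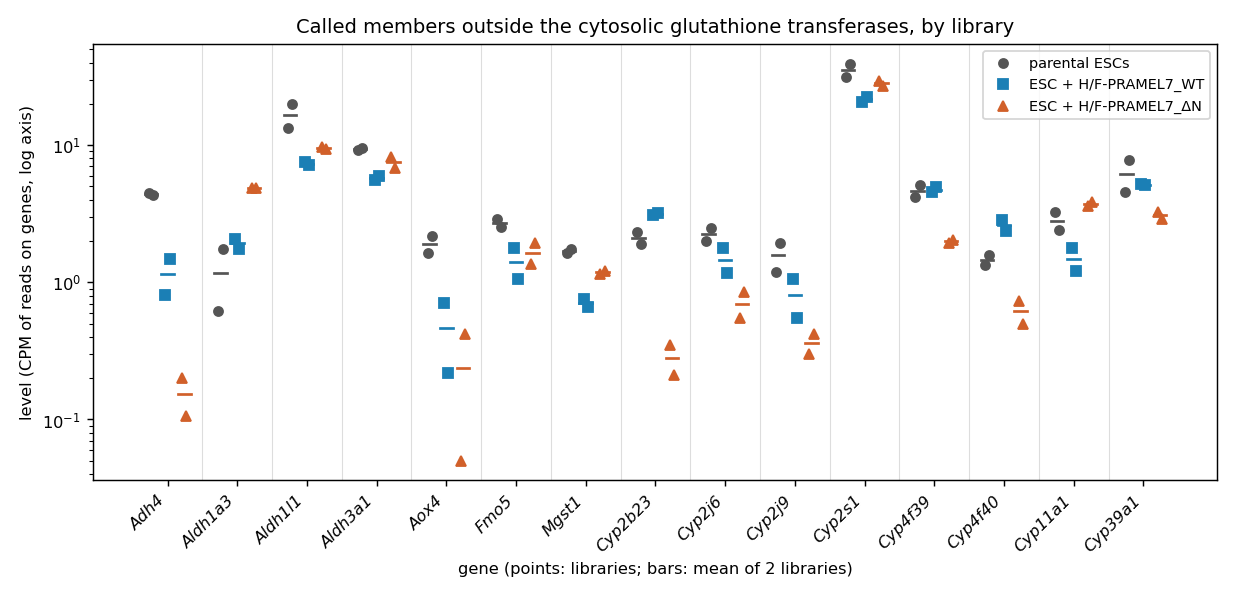
Levels of the 15 called members outside the cytosolic glutathione transferases in each of the 6 libraries, as CPM on a log axis, with points for libraries and short bars for the mean of 2. *Adh4* and *Aox4* are lower in both derived lines than in parental ESCs, *Cyp2b23* is lowest in the PRAMEL7_ΔN line, and *Aldh1a3* is highest there.

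Genes that work with these enzymes were read from 6 lists, which held 100 genes, of which 80 were tested. In the PRAMEL7_WT line 4 rose and 7 fell, in the PRAMEL7_ΔN line 2 rose and 11 fell, and between the derived lines 5 were higher and 2 lower in the PRAMEL7_WT line. As shares of those tested, these are 5.0% and 8.75%, 2.5% and 13.8%, and 6.25% and 2.5%, against 4.07% and 8.41%, 2.87% and 8.41%, and 6.63% and 4.72% of all genes tested. Their median log2 fold changes were 0.003, -0.03 and 0.005.

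Of the NRF2 pathway, which raises many glutathione transferases under oxidative stress, 1 of 20 genes was called. None was called in the PRAMEL7_WT line or between the derived lines with limma or voom, where 8 and 6 had an unadjusted p under 0.05. In the PRAMEL7_ΔN line only *Srxn1*, which repairs peroxiredoxins, rose, or 5.0% of the list against 2.87% of all genes tested. It had 41.7 and 28.4, 48.8 and 47.9, and 60.3 and 55.3 CPM and a log2 fold change of 0.73 (SE 0.16, adjusted p = 0.0112 from limma). That call of limma was lost without either library of the PRAMEL7_ΔN line (adjusted p = 0.0992 and 0.0595) and, at 0.46, without parental replicate 2. Of the 10 electron donors of P450s, 1 fell in the PRAMEL7_WT line, or 10.0%, near the 8.41% of all genes tested. This was *Fdxr*, which passes electrons to mitochondrial P450s, from 22.9 and 30.9 to 15.0 and 19.2 CPM (-0.62, SE 0.17, adjusted p = 0.0262 from limma). Its call was lost with either other scaling, without either library of the PRAMEL7_WT line and without parental replicate 2.

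Of the 9 tested xenobiotic and aryl hydrocarbon receptor genes, 3 fell in the PRAMEL7_ΔN line, against 8.41% of all genes. None was called in the PRAMEL7_WT line with limma or voom, where 4 had an unadjusted p under 0.05. *Ahr*, the aryl hydrocarbon receptor, had 4.54 and 6.40, 5.01 and 6.0, and 2.71 and 3.11 CPM, with -0.71 in the PRAMEL7_ΔN line (SE 0.19, adjusted p = 0.0261 from limma). The call of *Ahr* was lost without any 1 library but parental replicate 1, as was that of its repressor *Ahrr* (-0.76, adjusted p = 0.038 from limma). *Ahrr* had more than 1 CPM only in parental ESCs, so that the filter itself favoured its decrease. *Hnf4a*, a nuclear receptor of liver and endoderm, had 42 reads in parental ESCs, 38 in the PRAMEL7_WT line and 1 in the PRAMEL7_ΔN line. The ratio of parental ESCs to the PRAMEL7_ΔN line was 42.9-fold, with an exact 95% interval from 7.30 to 1740 that covers counting error only. Its adjusted p there was 0.00678 from limma, and 0.0658 without replicate 1 of the PRAMEL7_ΔN line.

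Retinoid genes fell in the PRAMEL7_WT line in 3 of 12 cases, or 25.0% against 8.41% of all genes tested. None rose there with limma or voom, while 3 increases had an unadjusted p under 0.05. *Crabp1*, which carries retinoic acid to its degrading enzymes, had 76.9 and 89.4, 34.4 and 40.5, and 67.0 and 58.7 CPM, with -1.13 in the PRAMEL7_WT line (SE 0.12, adjusted p = 0.000833 from limma). *Crabp2*, which carries it to the nucleus, had 4.33 and 5.21, 2.03 and 1.76, and 3.11 and 3.48 CPM, with -0.99 (SE 0.17, adjusted p = 0.00417 from limma, and 0.0502 without replicate 2 of the PRAMEL7_WT line). *Rbp4*, the retinol carrier, fell by 0.81 in the PRAMEL7_WT line and by 0.76 in the PRAMEL7_ΔN line, calls lost without either library of the line concerned (adjusted p from 0.0569 to 0.0852).

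Of 14 tested genes of other conjugation and hydrolysis, 3 rose and 2 fell in the PRAMEL7_WT line and 3 fell in the PRAMEL7_ΔN line. As shares these were 21.4%, 14.3% and 21.4%, against 4.07%, 8.41% and 8.41% of all genes tested. The largest change among the partner genes on log2(CPM + 1) was that of *Ephx2*, the soluble epoxide hydrolase. It had 61.4 and 58.4 CPM in parental ESCs, 104 and 94.8 in the PRAMEL7_WT line, and 13.0 and 15.1 in the PRAMEL7_ΔN line. Like *Gstp2*, it rose in one derived line and fell in the other. The log2 fold changes were 0.72 (SE 0.11, adjusted p = 0.00267 from limma), -2.02 (SE 0.11, adjusted p = 7.14e-06) and, between the derived lines, 2.74 (SE 0.11, adjusted p = 7.91e-07). The rise had an adjusted p of 0.0505 without replicate 1 of the PRAMEL7_WT line.

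Of 15 tested genes of other aldehyde, ketone and alcohol enzymes, 1 rose and 1 fell in the PRAMEL7_WT line and 3 fell in the PRAMEL7_ΔN line. As shares these were 6.67%, 6.67% and 20.0%, against 4.07%, 8.41% and 8.41% of all genes tested. *Cbr3*, a carbonyl reductase, had 19.4 and 17.0, 39.0 and 42.1, and 17.1 and 17.6 CPM. It rose in the PRAMEL7_WT line, with 1.12 over parental ESCs (SE 0.12, adjusted p = 0.000818 from limma) and 1.18 over the PRAMEL7_ΔN line (SE 0.12, adjusted p = 0.000253). *Sord*, the sorbitol dehydrogenase, had 14.1 and 13.6, 11.7 and 10.3, and 4.77 and 4.17 CPM, and fell in the PRAMEL7_ΔN line (-1.45, SE 0.14, adjusted p = 0.000269 from limma). Neither gene lost a call under any alternative. *Ggt5*, which cleaves glutathione conjugates, and *Sult2b1*, which adds sulfate to cholesterol, belong to the list of other conjugation and hydrolysis. Each of these genes fell in both lines, with -1.09 and -1.05 for *Ggt5*, and -1.0 and -1.12 for *Sult2b1*. *Ggt5* passed the filter through the parental libraries alone, which favoured a decrease. Of the aldehyde, ketone and alcohol list, *Adhfe1*, which is named after alcohol dehydrogenases that hold iron, fell in both lines, with -0.81 and -0.62. *Akr7a5*, an aldehyde reductase, fell in the PRAMEL7_ΔN line with -0.65. These 7 calls of *Ggt5*, *Sult2b1*, *Adhfe1* and *Akr7a5* were each lost without 1 or more libraries, with adjusted p values from 0.0173 to 0.116, the lowest for *Akr7a5* at a fold under the limit without parental replicate 2.

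Called members were set beside the other tested genes within 1 Mb, since the medians of chromosomes 6 and 11 lay away from 0 in these lines. *Aldh1l1*, on chromosome 6 from 90486427 to 90600203, moved with its surroundings. Its 14 neighbours had median log2 fold changes of -0.61 in the PRAMEL7_WT line, where 7 fell, and -0.78 in the PRAMEL7_ΔN line, where 8 fell. All 14 were negative in both lines. The part of this stretch in the decrease of *Aldh1l1* was not tested. *Aldh3a1*, on chromosome 11, had 33 neighbours with medians of -0.29 and -0.35, and chromosome 11 as a whole had -0.36 and -0.33. *Mgst1* lies elsewhere on chromosome 6, which had a median of -0.26 in the PRAMEL7_WT line and 0.25 in the PRAMEL7_ΔN line, while its own 4 neighbours had -0.11 and 0.06.

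The 26 neighbours of the mu-class cluster had medians of -0.19 and -0.07, and the 50 neighbours of the pi-class cluster 0.09 and -0.01, with 5 of them lower in the PRAMEL7_ΔN line and 7 higher in the PRAMEL7_WT line than in it. The 29 neighbours of the theta-class cluster had -0.24 and -0.10, with 5 and 4 lower. Around the alcohol dehydrogenase cluster, 11 neighbours had medians of -0.10 and 0.00, and no neighbour fell by more than 0.81 on the log2 scale, against -2.23 for *Adh4*. *Aldh1a3* had 13 neighbours with medians of -0.09 and 0.02. The Cyp2j cluster had only 4 tested neighbours, with a median of -0.43 in the PRAMEL7_ΔN line.

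**Figure D5:**
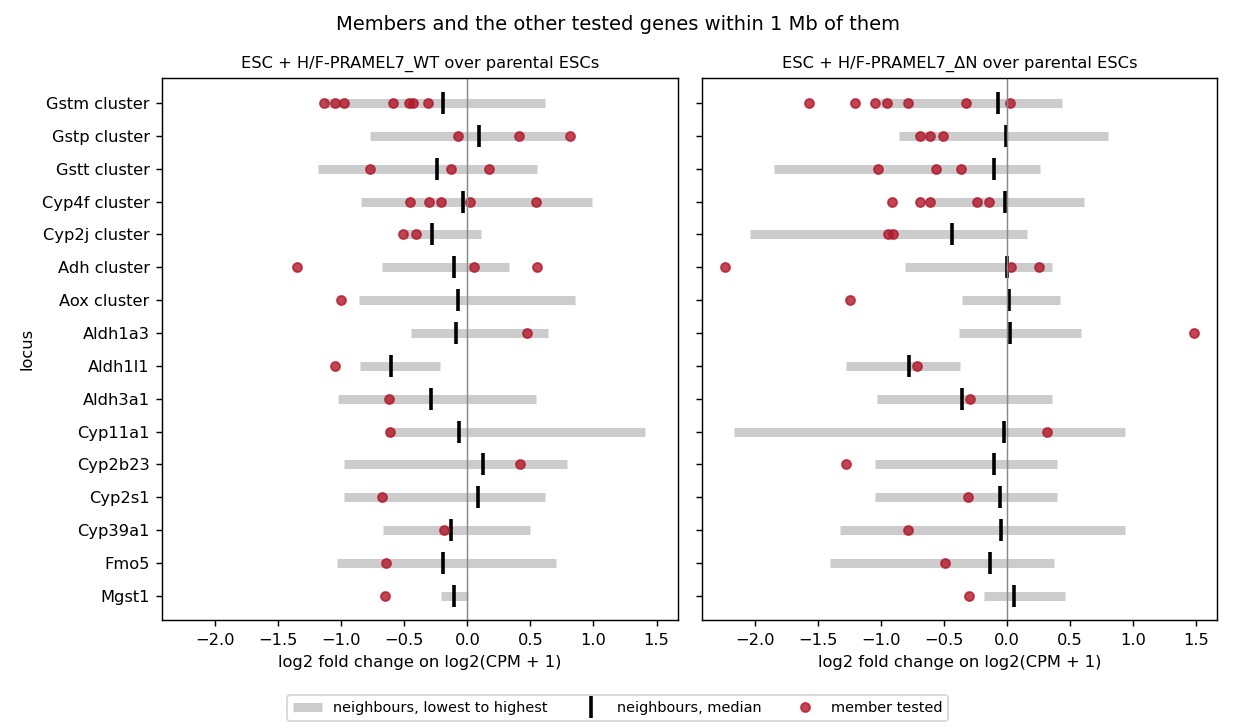
Log2 fold changes on log2(CPM + 1) of tested members (points) and of the other tested genes within 1 Mb (grey bars from lowest to highest, black mark at the median), for each derived line over parental ESCs. All neighbours of *Aldh1l1* lie left of 0, whereas the medians around the *Gstm*, *Gstp* and *Adh* clusters lie within 0.19 of 0.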

How the data were processed

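RNA was sequenced from 2 libraries for each of 3 ESC lines, from poly-A RNA with an unstranded kit and single-end reads of 100 bases. The authors removed ribosomal reads, trimmed the rest, aligned them to mm10 with STAR and deposited RPKM per gene, and did not state how reads with several matches were counted. The submitters' processing notes also name Bowtie2 2.3.4.3, Subread 1.4.6-p4 and deepTools 3.2.1. The tables of the authors' own comparisons (fold changes, test statistics and P values) were not used, and the 6 ChIP-seq samples were not analysed here.

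From the deposited RPKM, the reads behind each value were recovered with gene spans of GENCODE M21. Of the values up to 20 reads, 98.1 to 98.4% came out within 0.1 of a whole number, against 43.4 to 45.8% with exon lengths. RPKM times span gave CPM, with the authors' scaling kept. Of 50978 rows, 154 with a repeated symbol, 2744 with a symbol not matched and 72 with an ambiguous one were left out, and 48008 genes remained. A floor of 3 reads was 0.151 to 0.165 CPM. Intervals cover counting error only, and a ratio to a floor leaves out the counting error of the line compared.

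limma 3.58.1 in R 4.3.3, with a trend, was fitted on log2(CPM + 1) over all 6 libraries and the 12914 genes with more than 1 CPM in at least 2 libraries. P values were adjusted by Benjamini-Hochberg over all genes tested in a contrast, and a call needed an adjusted p under 0.05 and an absolute log2 fold change above 0.58. SE is the standard error from that fit, and n was 2 libraries per line. Where nothing but separate dishes tells the libraries of a line apart, p values measure only the spread between dishes. The fit was also run on simulated data with a fixed spread between libraries. Its outcome is not reported here, and no statement rests on it.

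Members were named where they were called, where they had the highest level per exon length of their family, or where they were on a list of 21 genes, and partner genes where they were called, up to 2 per list and contrast. *Adh1*, *Aldh1b1*, *Cyp2ab1*, *Cyp4f13*, *Cyp4f16*, *Cyp4f17*, *Gsta3*, *Gstk1*, *Gstm7*, *Gsto1*, *Gstp3* and *Gstt2* were added after their values had been seen. Some genes of the lists are not reported here by name. Members and lists were chosen with earlier results of these data known. Alternatives covered the pseudocount, the filter, the scaling, the unit, the limit on the fold change, the libraries fitted, a replicate block, voom on the recovered reads and each library left out.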

Additional observations from a re-analysis of the deposited data

Results flagged for a closer look

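In 10 of 56 tested members the derived lines differed, as called by limma, with 8 higher in the PRAMEL7_WT line and 2 lower, against 6.63% and 4.72% of all genes tested. The difference is given here as the log2 fold change of the PRAMEL7_WT line over the PRAMEL7_ΔN line. The difference was 1.69 for *Cyp2b23*, 1.42 for *Gstp2*, 1.26 for *Gstm2*, 1.16 for *Cyp4f40* and 1.10 for *Gstp1*. It was 0.93 for *Cyp4f39*, 0.89 for *Gstt1* and 0.88 for *Adh4*. In the other direction it was -1.01 for *Aldh1a3* and -0.93 for *Cyp11a1*. The differences of *Cyp2b23*, *Gstm2*, *Gstp1* and *Gstp2* were called under every alternative run, and that of *Cyp4f40* under all but a pseudocount of 5. *Pramel7* itself was also higher in the PRAMEL7_ΔN line than in the PRAMEL7_WT line, with 398 and 431 against 51.2 and 46.2 CPM, so that the deletion and the level of the transgene cannot be told apart.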

How the results depend on the processing

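Of the 42 calls of members over the 3 contrasts, none changed sign, 13 were made under each of 17 alternative fits in which the gene was tested, and 24 were lost without at least 1 of the 6 libraries. Counts below are of members called in 6 classes, in the order higher and lower in the PRAMEL7_WT line over parental ESCs, higher and lower in the PRAMEL7_ΔN line over parental ESCs, and higher and lower in the PRAMEL7_WT line over the PRAMEL7_ΔN line, where the values reported were 1, 13, 1, 17, 8 and 2. They were 1, 4, 1, 7, 4 and 0 with a pseudocount of 5, 2, 9, 1, 13, 9 and 1 without a filter, and 1, 5, 0, 6, 3 and 0 with a filter of 10 CPM, which fewer members pass. On RPKM as deposited, on which long genes take low values, they were 0, 0, 0, 1, 2 and 0. They were 3, 9, 1, 15, 9 and 2 with median-ratio scaling and 3, 8, 1, 13, 8 and 3 with quantile normalization. Without a limit on the fold change they were 6, 17, 2, 20, 14 and 3, and with a limit of 1 they were 0, 5, 1, 7, 5 and 1. Leaving out each library in turn gave ranges of 1 to 4, 5 to 14, 1 to 1, 8 to 23, 5 to 10 and 0 to 3. The cause of the other shifts was not tested. A pseudocount of 5 lost 25 of the 42 calls, the absence of a filter 13 and limma without a trend 0.

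With the replicate number as a replicate block, the counts were 1, 11, 1, 16, 8 and 2, and 3 of the 42 calls were lost. The deviations of libraries with the same number from the mean of their line correlated at 0.207, -0.249 and -0.103 across 12914 genes. Whether any libraries of different lines were handled together cannot be told from these values.

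Depth limits 32 members, which had a median of 3 reads per library and were not tested.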
